A study of Danio rerio with 6 samples.

Results

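Heat shock and chaperone genes were examined in whole zebrafish embryos at 48 h after fertilization. The set was defined by 40 gene names, of which 37 were matched to 40 gene identifiers among the 24462 in the table. Of these names, 30 were matched by symbol regardless of case, and 6, among them hsp90aa1.2, hspa8b and smyd1b, through a capital symbol without the paralogue suffix. The remaining name, hsp70l, was matched by the identifier that the definition of the set gives for it (ENSDARG00000055723). The names dnaja4, hsp70.2 and cct6a had no match and are not reported here. The symbols HSPA8, HSPA4, DNAJA2 and SMYD1 each belong to more than 1 identifier, and the table of names does not say which paralogue each is, so they are given with their identifiers. HSP90AA1 is the row matched to hsp90aa1.2, since hsp90aa1.1 has a row of its own.

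The embryos were of the Tropical 5D wild-type line, freed of the chorion at 4 h and held from 8 h in embryo medium with 0.5% methanol. The control group had methanol alone, and the FBSA group also had 47 µM perfluorobutane sulfonamide, a short-chain perfluorinated sulfonamide. Each group had 3 libraries made by 3′ RNA sequencing, each from 10 pooled embryos, and recovered totals ran from 23906021 to 33356411 reads in genes. Markers of fast muscle, heart, lens, blood, neuron and epidermis were all present, with no marker identifier at 0 in all 6 libraries. The summed heart markers were higher in every FBSA library (3628 to 3880 normalized counts against 2432 to 2872 in controls). Of 6 heart markers tested, 1 was past the threshold (limma adjusted p under 0.05), higher, where 0.568% of all genes tested were. The summed neuron markers were lower in every FBSA library (42873 to 48242 normalized counts against 55238 to 57765), with a median log2 fold change of −0.33. Of 7 neuron markers, 1 was past the threshold, lower, where 0.136% of all genes tested were. Of all single genes tested, 10.0% were higher in every FBSA library than in any control, and 9.91% were lower. The shares for sums of several genes are not given here. Blood, lens and epidermis sums overlapped between groups. The part of shifts in marker sums in the chaperone values was not tested. Levels are normalized counts (reads divided by 1 size factor per library), and log2 fold changes are FBSA minus control on the log2(normalized count + 1) scale.

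Chaperones bind unfolded or partly folded proteins and help them reach or regain their shape. In animal cells, heat and other stresses that unfold proteins activate the transcription factor HSF1, which turns on genes of the HSP70, HSP90, HSP40 and small heat shock families, while close relatives of the same families are made all the time as housekeeping chaperones. In zebrafish embryos hsp70l is widely used as a reporter of this response, and hsp90aa1.1, unc45b and smyd1b serve the folding and assembly of myosin in skeletal muscle. The genes were therefore taken in 4 classes, which are heat-inducible, muscle, heat shock factor and constitutive.

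No chaperone gene passed the test between groups. Of 38 members tested, 0 were higher and 0 lower at a Benjamini-Hochberg adjusted p under 0.05 in limma, with the adjustment made over all 16890 genes. The share of all genes that passed was 0.705% (0.568% higher and 0.136% lower). At an unadjusted p under 0.05 there were 2 members, HSPA9 higher and HSPA4 (ENSDARG00000004754) lower, which is 2 of 38 against 13.6% of all genes tested. The limma-voom fit also called 0 members. The median log2 fold change of the 38 members was −0.06, beside −0.0009 for all genes. The other 2 identifiers, HSPB7, a muscle small heat shock gene, and a second identifier named cct2, were below the filter of 10 normalized counts in at least 3 libraries, with at most 15.9 and 7.51 normalized counts in any library.

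A single control library stood apart in 6 of the 11 heat-inducible genes and in HSPA8 (ENSDARG00000037403). That gene was put in the constitutive class by its symbol alone. The members HSPA8 (ENSDARG00000037403), hsp70.3, hsp70.1, HSPB1, HSPH1, hsp70l and HSP90AA1 were at least 2-fold higher in control replicate 3 than in either other control. These are 7 of the 37 members tested whose mean level was at least 20 normalized counts. Of 14946 genes with such a mean, 80 met the same rule, or 0.535%. FBSA replicate 2 was the highest FBSA library in all 7 of those members but HSPH1, where FBSA replicates 1 and 2 were level at 21.6. The rule of at least 2-fold above both other libraries of its group was met by 1 member in FBSA replicate 2 and by 0 in each of the remaining 4 libraries. Of the 14946 genes, 1.23% met it in FBSA replicate 2 and 0.629% to 1.05% in the remaining 4. At these shares, counts of 0 or 1 among 37 members are no contrast with other genes. Control replicate 3 had the lowest total, 23906021 reads, next to 24348679 in control replicate 2, where 0 members met the rule. The part of read depth was not tested. The deposited header has its names 1 cell to the left of their values. Read without that shift, control replicate 3 would carry an FBSA name. In that reading a sample name would also stand over the gene identifiers, and the last column would have none. Without control replicate 3, 10 members changed the sign of their log2 fold change, and those values are given with each gene. Some began near 0, such as HSPA8 (ENSDARG00000068992), which went from 0.01 to −0.02. Over the fits with any single library left out, 15 members changed sign at least once. The share of all genes that did so is not given here.

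**Figure D1:**
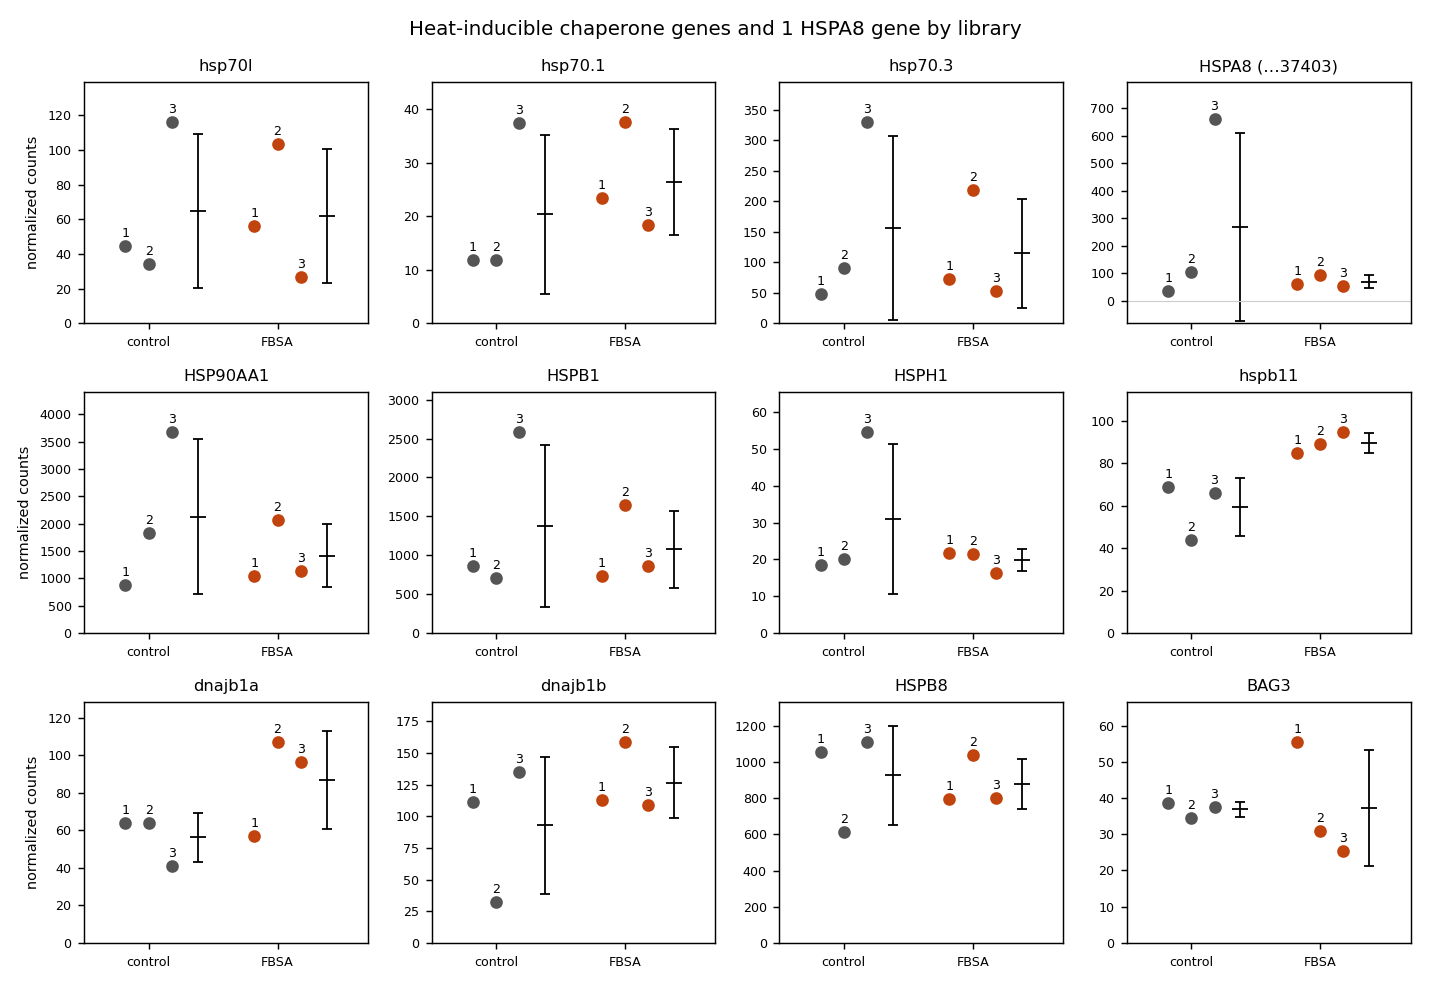
Normalized counts (y axis, linear) of 11 heat-inducible genes and HSPA8 (ENSDARG00000037403), whose panel is marked by the last digits of its identifier, in the 3 control (grey) and 3 FBSA (orange) libraries. Numbers are replicates, and bars are the mean ± SD of 3 libraries, which for HSPA8 reaches below 0. Control replicate 3 is the highest control in every panel of the upper row, at 116 for hsp70l and 662 for HSPA8, and FBSA replicate 2 is the highest FBSA library in each of those panels.

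The inducible HSP70 genes encode the chaperones that bind exposed hydrophobic stretches of damaged proteins. The reporter gene hsp70l had 44.4, 34.4 and 116 normalized counts in control replicates 1, 2 and 3, and 56.3, 103 and 26.4 in FBSA replicates 1, 2 and 3. The groups overlapped almost fully, with the lowest value in FBSA replicate 3 and the highest in control replicate 3. Means were 64.9 ± 44.4 normalized counts in controls and 62.0 ± 38.7 under FBSA (SD, n = 3 each), and the log2 fold change was −0.07 (95% interval −1.21 to 1.07; limma adjusted p = 0.971). Without control replicate 3 it was 0.45, and without FBSA replicate 2 it was −0.53. Without both libraries, a setting chosen after seeing the data, it was −0.02. That interval spans both a halving and a doubling, so neither was detectable for hsp70l at this spread.

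The gene hsp70.3 had 47.8, 91.3 and 329 normalized counts in the controls and 72.7, 218 and 52.8 in the FBSA libraries. Its values followed the order of hsp70l at the top, with control replicate 3 highest and FBSA replicate 2 next. The log2 fold change was −0.26 (95% interval −1.61 to 1.09; limma adjusted p = 0.889), and 0.51 without control replicate 3. Without FBSA replicate 2 as well it was −0.09. The third gene, hsp70.1, had 11.7, 11.9 and 37.5 normalized counts in controls and 23.4, 37.5 and 18.3 under FBSA, a log2 fold change of 0.51 (95% interval −0.72 to 1.74; limma adjusted p = 0.731), or 1.04 without control replicate 3. The highest control and the highest FBSA library were level in hsp70.1, and its log2 fold change without both was 0.76. The hsp70 genes are close copies, as are the hsp90aa1 pair, so reads may match more than 1 of them, and how the authors' counting treated such reads is not given in the sources used here. Their separate values are uncertain.

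HSPA8 is the symbol of the constitutive HSP70, the main housekeeping member of the family, and its 2 identifiers behaved in different ways. ENSDARG00000068992 had 48443, 50463 and 46093 normalized counts in controls and 47507, 50848 and 47900 under FBSA. The 6 libraries lay within a narrow band and the groups overlapped. Its log2 fold change was 0.01 ± 0.09 SE (95% interval −0.18 to 0.20; limma adjusted p = 0.966), and −0.02 without control replicate 3. ENSDARG00000037403 had 37.7, 107 and 662 normalized counts in controls and 63.2, 95.7 and 52.8 under FBSA. Control replicate 3 was 9.17-fold above the mean of the other 2 controls, while the other 5 libraries lay between 37.7 and 107. Its level was far below that of ENSDARG00000068992, and inducible genes such as hsp70.3 were also high in control replicate 3. The constitutive class of ENSDARG00000037403 rests on its symbol, and these values do not resemble those of a housekeeping gene. Whether it is heat-inducible was not tested. Its log2 fold change, the lowest of the set at −1.02 (95% interval −2.61 to 0.58; limma adjusted p = 0.574), became 0.10 without control replicate 3.

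Cytosolic HSP90 matures kinases and steroid receptors, and in zebrafish it is made from a constitutive gene, hsp90ab1, and a pair of hsp90aa1 genes. HSP90AB1 had 60230, 77367 and 65285 normalized counts in controls and 70345, 72036 and 81093 under FBSA. The FBSA libraries lay inside or just above the control range, with a log2 fold change of 0.14 (95% interval −0.10 to 0.38; limma adjusted p = 0.598). HSP90AA1, the row matched to the heat-inducible hsp90aa1.2, had 886, 1821 and 3671 normalized counts in controls and 1041, 2075 and 1137 under FBSA. Control replicate 3 was again the highest and FBSA replicate 2 the next. Means were 2126 ± 1417 and 1417 ± 571 normalized counts (SD, n = 3 each). The log2 fold change of −0.42 (95% interval −1.28 to 0.43; limma adjusted p = 0.672) became 0.09 without control replicate 3. Without FBSA replicate 2 as well it was −0.22.

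The small heat shock proteins hold unfolded proteins in a soluble state without using ATP. HSPB1, the homologue of mammalian HSP27, had 859, 703 and 2580 normalized counts in controls and 729.8, 1642 and 862 under FBSA. It had the same highest pair of libraries as hsp70.3 and HSP90AA1. Its log2 fold change of −0.20 (95% interval −1.08 to 0.68; limma adjusted p = 0.867) was 0.38 without control replicate 3. Without FBSA replicate 2 as well it was 0.03. The gene hspb11 had 68.8, 43.9 and 65.9 normalized counts in controls and 84.8, 89.2 and 94.5 under FBSA. All FBSA libraries lay above all controls in hspb11, as in 10.0% of all genes tested. The groups were apart in this 1 of the 11 inducible members, where 19.9% of all genes tested were apart in either direction. The log2 fold change of hspb11 was 0.61 (95% interval −0.02 to 1.23; limma adjusted p = 0.378), or 0.69 without control replicate 3. HSPB8, which works with BAG3 in clearing damaged proteins in mammals, had 925.9 ± 274 normalized counts in controls and 879 ± 139 under FBSA (SD, n = 3 each; log2 fold change −0.04, limma adjusted p = 0.957). Its lowest library was control replicate 2, and its log2 fold change was 0.12 without control replicate 3.

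Cofactors of HSP70 fall into J-domain proteins, which deliver clients, and nucleotide exchange factors, which release them. The stress-induced J-domain gene dnajb1a had 63.7, 64.1 and 40.9 normalized counts in controls and 57.1, 107 and 96.5 under FBSA. FBSA replicates 2 and 3 lay above the controls and FBSA replicate 1 among them, with a log2 fold change of 0.60 (95% interval −0.12 to 1.32; limma adjusted p = 0.462). Control replicate 3, the highest library in hsp70l and HSPB1, was the lowest in dnajb1a, whose log2 fold change without that library was 0.39. Its paralogue dnajb1b had 112, 32.0 and 135 normalized counts in controls and 113, 159 and 109 under FBSA. Control replicate 2 lay far below the other libraries in dnajb1b, and the log2 fold change, the largest of the set at 0.66 (95% interval −0.30 to 1.62; limma adjusted p = 0.546), was 0.02 without that library and 1.04 without control replicate 3.

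Among exchange factors, HSPH1 (HSP110, a heat-induced exchange factor) had 18.4, 20.2 and 54.5 normalized counts in controls and 21.6, 21.6 and 16.3 under FBSA. Apart from control replicate 3 its libraries lay between 16.3 and 21.6, and the log2 fold change of −0.46 (95% interval −1.58 to 0.66; limma adjusted p = 0.735) was 0.03 without that library. BAG3, which links HSP70 to small heat shock proteins, had 38.6, 34.4 and 37.5 normalized counts in controls and 55.4, 31.0 and 25.4 under FBSA. Its controls were close together and its FBSA libraries spread to both sides of them (log2 fold change −0.06, limma adjusted p = 0.964).

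The log2 difference from the control mean had a median over the 11 inducible members of −0.33, −0.42 and 0.97 for control replicates 1 to 3, and of −0.0001, 0.60 and −0.43 for FBSA replicates 1 to 3. Control replicate 3 and FBSA replicate 2 had the highest medians of their groups, and the groups overlapped. The median log2 fold change of the class was −0.06. With each single library left out, it ran from −0.31 without control replicate 2 to 0.39 without control replicate 3. Of the 11 members, 6 had their highest value in control replicate 3 and 3 in FBSA replicate 2. Over all genes tested, control replicate 3 was the highest library in 11.9% and FBSA replicate 2 in 21.7%. The other 2 inducible members, BAG3 and hspb11, were highest in FBSA replicates 1 and 3. For comparison, the 20 constitutive members had medians between −0.10 and 0.11 in the 6 libraries. What set the level of the inducible genes in control replicate 3 was not tested. The share of reads in mitochondrially encoded genes was 2.36% there, within the 2.30% to 2.68% of the 6 libraries.

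**Figure D2:**
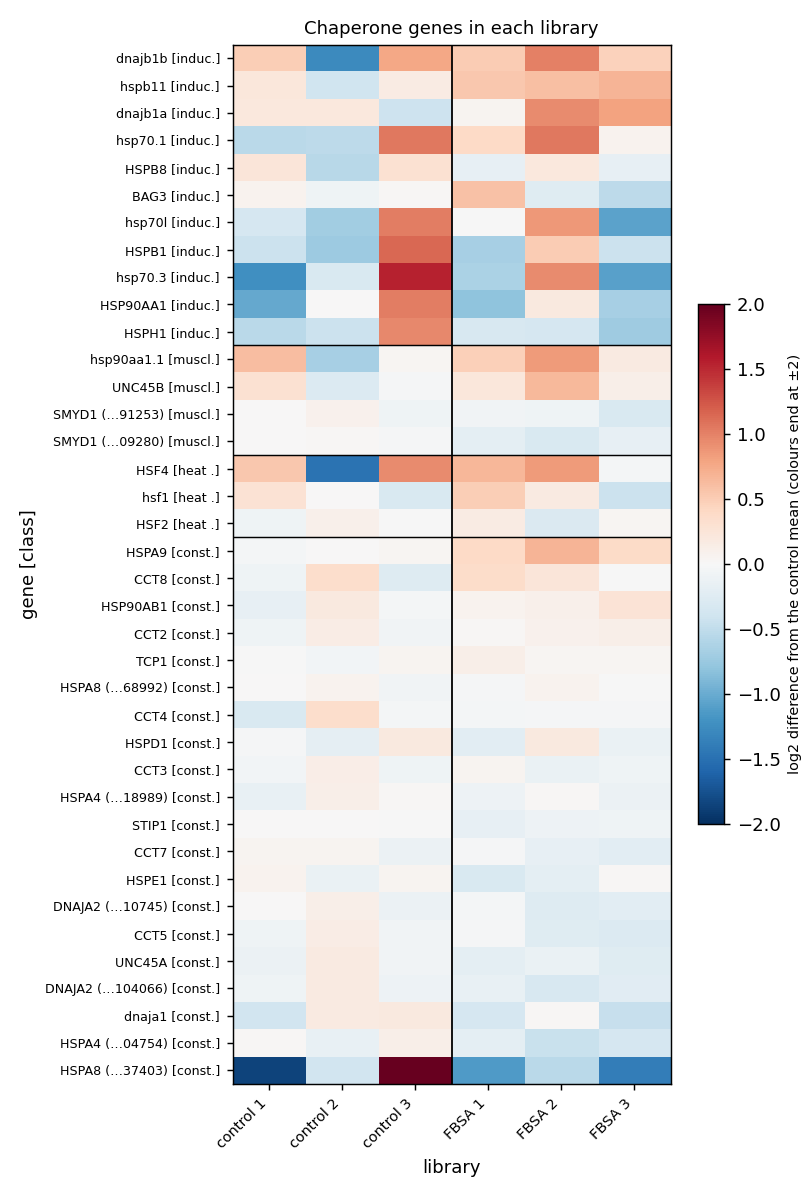
Log2 difference of each of 38 chaperone genes from its control mean (colour, ends at ±2) in the 6 libraries (columns), with genes (rows) in 4 classes separated by lines and shared symbols marked by the last digits of the identifier. Control replicate 3 is red in the hsp70, HSPB1 and HSP90AA1 rows. FBSA replicate 2 is red in the hsp70 rows, paler in HSPB1 and close to the control mean in HSP90AA1. The constitutive rows are mostly pale. Exceptions are HSPA8 (ENSDARG00000037403) in the bottom row and HSPA9, which is above the control mean in all 3 FBSA libraries.

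The heat shock factors are transcription factors that bind heat shock elements, and HSF1 is the one that answers to heat. The gene hsf1 had 243, 199 and 161 normalized counts in controls and 279.6, 224 and 147 under FBSA. The groups overlapped fully (log2 fold change 0.08, 95% interval −0.47 to 0.63; limma adjusted p = 0.916), and control replicate 3, where hsp70l was highest, was the lowest control for hsf1. Without it the value for hsf1 was −0.07. HSF2, which acts in development, had 724 ± 44.6 and 717 ± 112 normalized counts (SD, n = 3 each; log2 fold change −0.02, limma adjusted p = 0.959). HSF4, the lens factor in mammals, was near the filter, with 12.6, 2.37 and 17.0 normalized counts in controls and 13.9, 16.0 and 8.13 under FBSA. Its interval of −1.19 to 2.18 (95%) on the log2 scale was the widest of this class, and its log2 fold change of 0.49 became −0.25 without control replicate 2 and 0.96 without control replicate 3.

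The muscle chaperones fold and assemble the myosin of the thick filament. The gene hsp90aa1.1 had 2391, 981 and 1605 normalized counts in controls and 2163, 2820 and 1771 under FBSA. Control replicate 1 lay among the FBSA values, and the log2 fold change was 0.51 (95% interval −0.06 to 1.07; limma adjusted p = 0.42), or 0.17 without control replicate 2. UNC45B, the muscle myosin chaperone that works with HSP90, had 428, 285 and 338 normalized counts in controls and 403, 541 and 374 under FBSA, with the same lowest and highest library as hsp90aa1.1 and a log2 fold change of 0.33 (95% interval −0.10 to 0.75; limma adjusted p = 0.5).

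SMYD1, the name stem of smyd1b, encodes a muscle methyltransferase that acts in thick filament assembly in zebrafish. SMYD1 (ENSDARG00000009280) had 1210, 1223 and 1186 normalized counts in controls and 1059, 979 and 1078 under FBSA. All FBSA libraries lay below all controls in this row, with a log2 fold change of −0.22 (95% interval −0.46 to 0.03; limma adjusted p = 0.431). SMYD1 (ENSDARG00000091253) had 496, 528 and 464 normalized counts in controls and 469, 467 and 402 under FBSA. Its groups overlapped, at a log2 fold change of −0.15 (limma adjusted p = 0.676). Of 19 fast skeletal muscle markers in the same fit, 2 fell and 0 rose, where 0.136% of all genes tested fell and 0.568% rose. Their median log2 fold change was −0.12, with a summed level of 1597060 to 1764770 normalized counts in controls and 1459200 to 1640650 under FBSA. Of 7 myogenic markers tested, the regulators of muscle cell formation, 1 rose and 0 fell, with a median of 0.08. Their summed level was 3583 to 3832 normalized counts for controls against 4138 to 4234 for FBSA. The groups were apart in that sum. Of single genes tested, 10.0% were higher in every FBSA library, and the share for sums of several genes is not given here. The part of muscle content in the values of these 4 genes was not tested, and in whole embryos fewer cells of a type and less RNA per cell cannot be told apart.

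Mitochondria have chaperones of their own. HSPA9 (mortalin), the mitochondrial HSP70 that pulls proteins through the inner membrane and is needed for blood formation in zebrafish, had 1148, 1189 and 1222 normalized counts in controls and 1563, 1904 and 1551 under FBSA. All 3 FBSA libraries lay above all 3 controls, a pattern found in 2 of the 38 members (HSPA9 and hspb11) and in 10.0% of all genes tested. Means were 1186 ± 37.1 and 1672 ± 200.4 normalized counts (SD, n = 3 each), a log2 fold change of 0.49 ± 0.12 SE (1.40-fold, 95% interval 0.23 to 0.75), which did not pass (limma adjusted p = 0.101). It lay between 0.39 and 0.54 without each library in turn, with limma adjusted p no lower than 0.124 in those fits. The mitochondrial chaperonin is built from HSPD1 (HSP60) and its lid HSPE1 (HSP10). HSPD1 had 2545 ± 329.9 and 2469 ± 385 normalized counts (SD, n = 3 each), with a log2 fold change of −0.05 (95% interval −0.34 to 0.24; limma adjusted p = 0.905), or 0.05 without control replicate 3. HSPE1 had 3473 ± 258 and 3111 ± 374 normalized counts, with a log2 fold change of −0.16 (95% interval −0.41 to 0.08; limma adjusted p = 0.564). Of these 3 genes HSPA9 alone had groups that were apart.

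**Figure D3:**
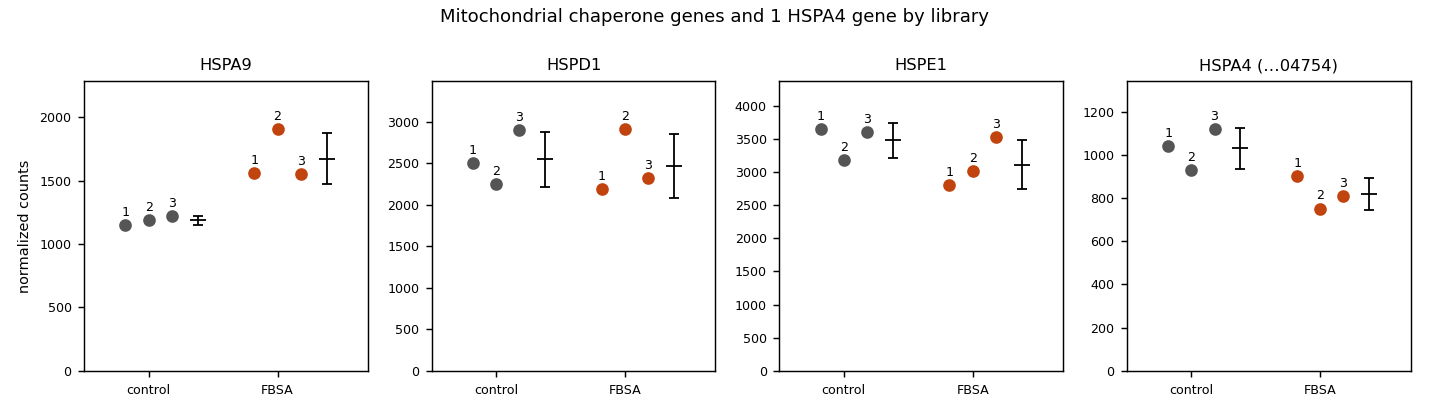
Normalized counts (y axis, linear from 0) of HSPA9, HSPD1, HSPE1 and HSPA4 (ENSDARG00000004754) in the 3 control (grey) and 3 FBSA (orange) libraries, numbered by replicate, with bars for the mean ± SD of 3 libraries. HSPA9 runs from 1148 to 1222 in control and from 1551 to 1904 with FBSA, HSPA4 is lower in all FBSA libraries, and the HSPD1 and HSPE1 groups overlap.

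Of the 20 constitutive members tested, 1 was higher in every FBSA library than in any control (HSPA9, above) and 4 were lower. HSPA4 (ENSDARG00000004754), an HSP110 exchange factor, had 1042, 931 and 1119 normalized counts in controls and 900.4, 752 and 809.9 under FBSA. Every FBSA library was below every control, with a log2 fold change of −0.33 ± 0.13 SE (95% interval −0.61 to −0.05), which did not pass (limma adjusted p = 0.293). The other identifier, HSPA4 (ENSDARG00000018989), had overlapping groups and a log2 fold change of −0.06 (limma adjusted p = 0.841). DNAJA2 (ENSDARG00000104066), UNC45A and STIP1, the adaptor that joins HSP70 to HSP90, were also lower in every FBSA library than in any control, as was the SMYD1 identifier above. These 5 are 5 of 38 members tested, where 9.91% of all genes tested were lower in this way and 19.9% were apart in either direction. STIP1 had the least spread, with 1988, 1993 and 1968 normalized counts in controls and 1775, 1849 and 1862 under FBSA (log2 fold change −0.12, 95% interval −0.34 to 0.10; limma adjusted p = 0.643). DNAJA2 (ENSDARG00000104066) had 2574, 3086 and 2527 normalized counts in controls and 2444, 2181 and 2315 under FBSA (log2 fold change −0.23, limma adjusted p = 0.388). UNC45A, the myosin chaperone of non-muscle cells, had a log2 fold change of −0.19 (limma adjusted p = 0.617). The J-domain gene dnaja1 overlapped, with 155, 230.1 and 233 normalized counts in controls and 160.2, 206 and 146 under FBSA (log2 fold change −0.26, limma adjusted p = 0.649), and so did DNAJA2 (ENSDARG00000010745; log2 fold change −0.17).

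TRiC is the ring-shaped cytosolic chaperonin that folds actin and tubulin, and its 8 kinds of subunit come from the cct genes and tcp1. Of the 7 subunit genes tested 0 passed, and their log2 fold changes ran from −0.18 in CCT5 to 0.20 in CCT8, with a median of −0.03 and standard errors of 0.09 to 0.15. TCP1 had 4500, 4375 and 4692 normalized counts in controls and 4911, 4658 and 4647 under FBSA. CCT2 had 9930 ± 934 and 10408 ± 338 normalized counts, CCT3 had 6341 ± 501 and 6110 ± 419.5, and CCT7 had 5433 ± 384 and 4970 ± 335 (SD, n = 3 each). The groups overlapped in all 7. CCT4 showed where the spread lay, with 9828, 15472 and 11795 normalized counts in control against 11770, 11997 and 11926 with FBSA. Control replicate 2 was the highest library in 5 of the 7 (CCT2, CCT3, CCT4, CCT5 and CCT7), as it was in 23.8% of all genes tested. CCT8 had its highest value in FBSA replicate 1, with 3423, 4646 and 3031 normalized counts in controls and 4677, 4288 and 3619 under FBSA. For the 7 genes together the 95% intervals reached no lower than −0.41 and no higher than 0.53 on the log2 scale, so a 1.5-fold rise or fall lay beyond all of them.

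**Figure D4:**
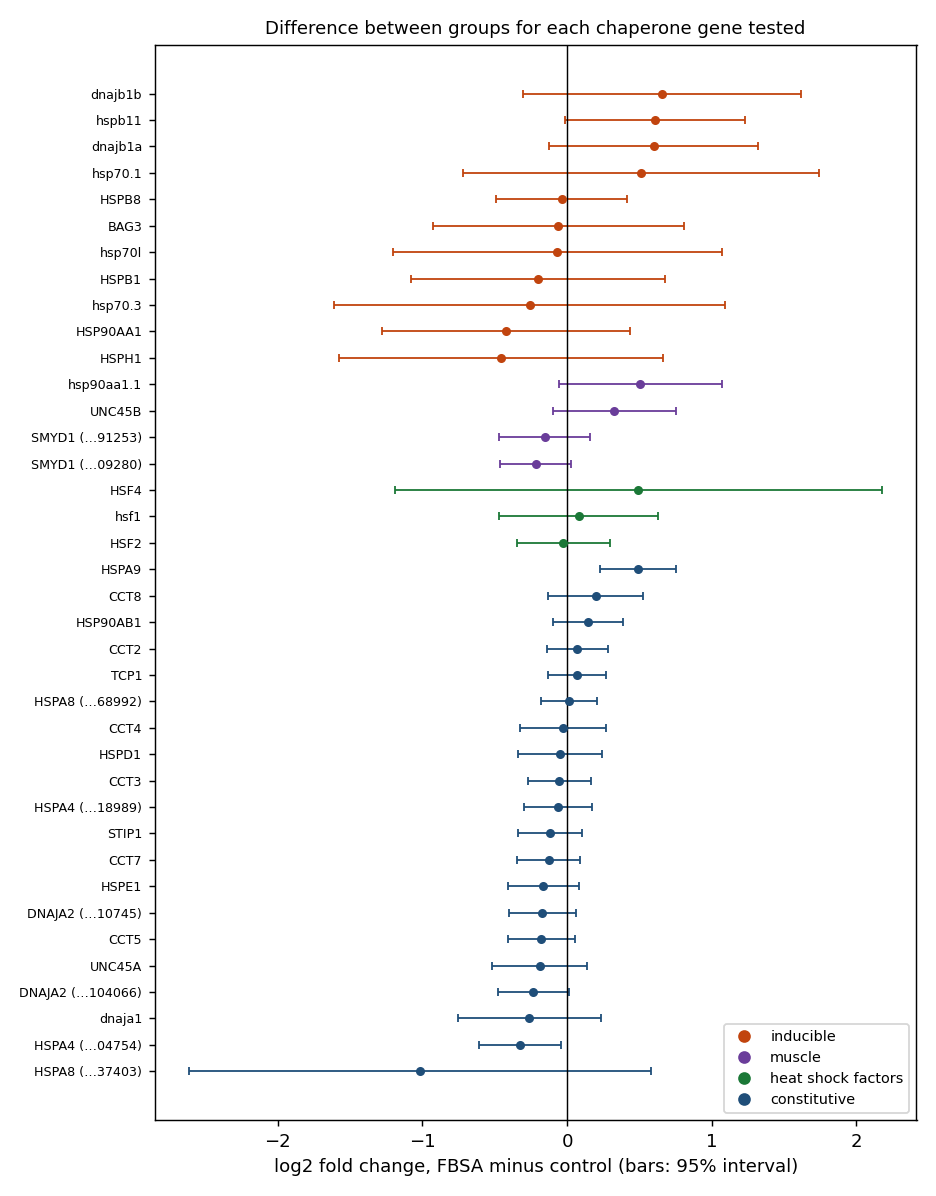
Log2 fold change (x axis, FBSA minus control) of the 38 chaperone genes tested (y axis), coloured by class, with points for the estimate and bars for its 95% interval without adjustment for the number of genes. Intervals are narrow around 0 for most constitutive genes, such as −0.18 to 0.20 for HSPA8 (ENSDARG00000068992), and wide for inducible ones, such as −1.61 to 1.09 for hsp70.3, and those of HSPA9 and HSPA4 (ENSDARG00000004754) leave out 0.

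Beyond the named set, a wider list of 84 chaperone and cochaperone names matched 82 further gene identifiers, of which 75 were tested. None passed (0 higher and 0 lower in limma at the same threshold, and 0 with limma-voom), and 11 had an unadjusted p under 0.05, 5 higher and 6 lower, which is 11 of 75 where the share of all genes was 13.6%. The median log2 fold change was −0.08. The ubiquitin ligase gene STUB1, which tags HSP70 clients for breakdown, had 15.9, 10.7 and 12.5 normalized counts in controls and 31.2, 31.0 and 27.4 under FBSA (log2 fold change 1.15, 95% interval 0.12 to 2.18; limma adjusted p = 0.309). FKBP5, an HSP90 cochaperone of the glucocorticoid receptor and one of its target genes in mammals, had 152, 75.9 and 55.6 normalized counts in controls and 167, 239 and 166 under FBSA (log2 fold change 1.11, 95% interval 0.39 to 1.84; limma adjusted p = 0.174). All FBSA libraries were above all controls in both genes, as in 10.0% of all genes tested. FKBP5 passed when control replicate 1, its highest control, was left out (log2 fold change 1.52, limma adjusted p = 0.0402). It did not pass on leaving out any other library, with 0.80 (limma adjusted p = 0.402) without control replicate 3 and 0.94 (limma adjusted p = 0.514) without FBSA replicate 2. The J-domain gene dnajb2 had 24.3 ± 11.5 and 45.7 ± 22.4 normalized counts (SD, n = 3 each; log2 fold change 0.89, limma adjusted p = 0.462), and its groups overlapped.

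On the lower side, PDCL3, a phosducin-like partner of TRiC, had 182, 185 and 212 normalized counts in controls and 83.1, 104 and 119.9 under FBSA. The groups were apart, as 9.91% of all genes tested were on the lower side, with a log2 fold change of −0.92 (95% interval −1.41 to −0.44; limma adjusted p = 0.0968). HSPA5 (BiP), the HSP70 of the endoplasmic reticulum, chosen after its values were seen because it had the same adjusted p, had 4782, 5551 and 5298 normalized counts in controls and 4229, 3654 and 3723 under FBSA (log2 fold change −0.43, 95% interval −0.65 to −0.20; limma adjusted p = 0.0968). Neither gene passed.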

How the data were processed

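The 6 libraries were grouped as 3 control and 3 FBSA by the treatment in the labels. STAR, HTSeq, DESeq2 and the build GRCz11 are listed, with no version, in the submitters' processing notes, and how reads matching several genes were counted is not given in the sources used here. In 6 columns the authors deposited log2 values for 24462 identifiers with a shared floor of 6.52. The header has its names 1 cell further left than the values, and each was moved over by 1 cell. Undoing a variance-stabilising transformation of closed form gave whole reads divided by 1 size factor per library (100% of values above the floor within 0.1 of a whole number, largest distance 0.0168). This step was tested on simulated reads.

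A gene was kept if 3 or more libraries reached 10 normalized counts, which left 16890. Their log2(normalized count + 1) was fitted with limma 3.58.1 in R 4.3.3 (group as the only term, trend moderation, two-sided, Benjamini-Hochberg over all genes, threshold 0.05). The scale understates the change of low genes. The design had assumed normalized counts, so they were recovered first. The fit was also tested on simulated counts. Intervals are 95% and not adjusted for the number of genes. Whether pools came from separate clutches is not given, so p-values measure only the spread between these pools. Reads carry no molecular identifiers and are not independent molecules.

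A table of gene names gave symbols to 22817 identifiers. The members and lists were chosen with earlier results of these data known. Given in full were the 6 largest and the 6 smallest log2 fold changes, members with groups apart and a log2 fold change of at least 0.3 in size, and hsp70l, hspa8, hsp90aa1.1, hsp90aa1.2, hsp90ab1, hsf1, unc45b, smyd1b and hspb1. Of the wider list, the 4 largest log2 fold changes in size with a mean of 20 or more were named. The rule on libraries at least 2-fold above the others was chosen after seeing the data. No sequences are printed, as none were used here. Python 3.11.15, numpy 2.4.6, pandas 2.3.3 and matplotlib 3.10.9 were used.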

Additional observations from a re-analysis of the deposited data

How the results depend on the processing

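No member passed at 0.05 under any alternative run, among them other pseudocounts and filters, another scaling, the deposited log2 values, robust moderation and limma-voom. A threshold of 0.1 was applied to the main fit only, where 0 members passed and HSPA9 was at a limma adjusted p of 0.101. Under some alternatives HSPA9 was below 0.1, with a limma adjusted p of 0.0908 at a pseudocount of 5 and 0.0974 with no filter. The smallest limma adjusted p of any member was 0.0811, for HSPA9 with robust moderation. For HSPA9 the limma adjusted p was 0.24 without control replicate 3, and its largest value over the alternatives was 0.697. Genes past the threshold numbered 237 at 0.1. Deviations of same-numbered libraries had correlations of 0.02, −0.14 and −0.005, and those of differently numbered ones ran from −0.139 to 0.126. With so few libraries, whether the numbers mark a shared clutch or batch cannot be told from these. With the replicate block 47 genes passed (40 higher, 7 lower). Without control replicate 3 and FBSA replicate 2, an alternative chosen after seeing the data, 44 passed (36 higher, 8 lower), and the log2 fold changes of BAG3, hsf1, HSF2, HSPA8 (ENSDARG00000068992) and HSPB1 were 0.04, −0.12, 0.10, −0.052 and 0.03. With total count scaling that of this HSPA8 gene was −0.0098. Leaving out each library in turn, 53 to 102 genes passed (46 to 87 higher, 4 to 23 lower), with 53 without control replicate 3, and 57 and 58 on leaving out FBSA replicates 1 and 2, and 0 to 1 of the wider chaperone list (FKBP5, without control replicate 1). The median log2 fold change of members ran from −0.11 to 0.033, the latter without control replicate 3. Of 604 values for members over all alternatives, 32 changed sign, in 15 members. With each single library left out, their log2 fold changes ran from −0.38 to 0.17 for BAG3, −0.13 to 0.33 for hsf1, −0.12 to 0.11 for HSF2, −0.25 to 0.96 for HSF4, −0.87 to 0.51 for hsp70.3, −0.53 to 0.45 for hsp70l, −0.94 to 0.087 for HSP90AA1, −1.95 to 0.10 for HSPA8 (ENSDARG00000037403), −0.02 to 0.044 for HSPA8 (ENSDARG00000068992), −0.56 to 0.38 for HSPB1, −0.31 to 0.12 for HSPB8, −0.17 to 0.050 for HSPD1, −0.73 to 0.027 for HSPH1, −0.11 to 0.011 for CCT3 and −0.18 to 0.14 for CCT4. The cause was not tested. With 3 libraries a group, intervals of inducible genes spanned more than a 2-fold change either way for hsp70l and hsp70.3.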

Other observations

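Genes outside the named set shared the high value in control replicate 3. Of 14946 genes whose mean level was at least 20 normalized counts, 11 were at least 3-fold higher in control replicate 3 than in either other control, and 4 of these were chaperone members (HSPA8 ENSDARG00000037403, hsp70.3, hsp70.1 and HSPB1). The ratio was highest in isg15, an interferon-stimulated ubiquitin-like gene, with 1.68, 7.12 and 61.3 normalized counts in control and 6.93, 92.0 and 28.5 with FBSA. Like hsp70.3, isg15 had its highest values in control replicate 3 and FBSA replicate 2, but in isg15 FBSA replicate 2 was the higher. The gene ENSDARG00000029232 also had its highest values in that pair of libraries. Others outside the set did not share this order. In GLDC and zgc:92749 every FBSA library was above control replicate 3, and si:dkey-58j15.11 was highest in FBSA replicate 3. These genes were chosen after their values were seen.

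Relatives that the lists did not hold were looked up afterwards by symbol. The gene with the symbol hspa1b had 0.838, 3.56 and 21.6 normalized counts in controls and at most 2.82 under FBSA, below the filter, with control replicate 3 again the highest library. The gene with the symbol hsc70 (ENSDARG00000012381) had 1020, 985 and 768 normalized counts in controls and 564, 549 and 615 under FBSA. Its groups were apart, as 9.91% of all genes tested were on the lower side. Its log2 fold change was −0.67 (95% interval −0.98 to −0.36; limma adjusted p = 0.0632), which did not pass. It was −0.80 without control replicate 3 (limma adjusted p = 0.0629), and −0.77 without FBSA replicate 2 as well. CCT6B carries a symbol of the CCT6 subunit of TRiC, which the TRiC genes of the set lack because cct6a had no match. It had 9564, 11443 and 9657 normalized counts in controls and 9950, 9420 and 10099 under FBSA. The groups overlapped, at a log2 fold change of −0.05 (limma adjusted p = 0.851). Whether this row is cct6a is not given by the table of names. Groups also overlapped in the gene with the symbol dnaja (ENSDARG00000051762), at a log2 fold change of −0.29 (limma adjusted p = 0.597).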
